A study of Mus musculus with 20 samples.

Results

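Vegfa and 9 genes of endothelial cells, the cells that line blood vessels, were followed through 20 RNA-seq libraries of whole mouse adrenal glands. The 10 genes were taken from the table by symbol, out of 47729 genes: Vegfa, Kdr, Flt1, Tek, Tie1, Cdh5, Pecam1, Plvap, Emcn and Nos3. These symbols were chosen with earlier results of these data known. All 10 were found, and all 10 passed the filter on low values. The study compared adrenals of both sexes in which the clock gene Bmal1 (symbol Arntl) is inactivated, labelled SCC::Cre_BMAL1 KO and called Bmal1 KO here, with controls labelled SCC::Cre_CTRL. The groups were 5 control females aged 1.5 to 3.4 months, 5 Bmal1 KO females aged 2.4 to 3.4 months, 6 control males aged 2.9 to 4.7 months and 4 Bmal1 KO males aged 2.9 to 3.7 months. Both labels name the Cre recombinase, and if the controls carry it, a shared effect of Cre is present in them as well. P450scc, the enzyme that SCC stands for, is made in steroid-producing cells, and endothelial cells are not known as a site of this driver. Strain, breeding, time of day, the exons removed and the recombination achieved are details not given in the sources used here.

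As background, the adrenal cortex is among the most densely perfused tissues, and its capillaries have thin, fenestrated walls through which steroid hormones and their precursors pass. Vegfa encodes VEGF-A, a secreted growth factor that steroidogenic cells make under pituitary ACTH and that endothelial cells read through the receptors encoded by Kdr and Flt1. VEGF-A keeps fenestrated capillaries open and alive, angiopoietin and TIE signalling steadies them, and low oxygen raises Vegfa transcription through hypoxia-inducible factors. BMAL1 binds DNA as a partner of CLOCK at E-box sequences.

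The start regions of the genes on which the results turn are shown to give the sequence beside the levels. RefSeq start windows on GRCm38.p6, each of 300 bases from 250 before to 50 after an annotated start, were found for 6 of the 10 genes, with 7 windows in all because Vegfa had 2. Vegfa has one at chr17:46032328-46032627 (outer start, minus strand) and one at chr17:46025114-46025413 (inner start, minus strand). The Tek window is chr4:94739039-94739338 (plus strand), that of Tie1 is chr4:118489800-118490099 (minus strand) and that of Emcn is chr3:137340828-137341127 (plus strand). Capitals mark a match to any of 4 short motifs searched on both strands, with matches on the opposite strand shown as the reverse complement. The E-box was searched as CACGTG. The core bound by hypoxia-inducible factors was searched as ACGTG, which every E-box match also holds. The core of ETS factors, which endothelial genes commonly use, was searched as AGGAAG. The steroid receptor half-site was searched as AGAACA.
Vegfa outer start: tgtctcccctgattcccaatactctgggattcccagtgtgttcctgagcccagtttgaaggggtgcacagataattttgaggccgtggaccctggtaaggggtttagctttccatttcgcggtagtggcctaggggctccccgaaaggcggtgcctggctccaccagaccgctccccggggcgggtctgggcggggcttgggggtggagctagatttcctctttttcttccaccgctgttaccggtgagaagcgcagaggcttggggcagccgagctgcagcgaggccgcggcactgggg
Vegfa inner start: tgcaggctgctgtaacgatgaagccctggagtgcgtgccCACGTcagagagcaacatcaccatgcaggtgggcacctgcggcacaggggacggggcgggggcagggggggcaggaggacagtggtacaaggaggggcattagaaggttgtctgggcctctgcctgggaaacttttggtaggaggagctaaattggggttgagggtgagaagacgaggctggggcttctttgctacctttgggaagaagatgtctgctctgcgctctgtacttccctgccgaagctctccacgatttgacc
Tek: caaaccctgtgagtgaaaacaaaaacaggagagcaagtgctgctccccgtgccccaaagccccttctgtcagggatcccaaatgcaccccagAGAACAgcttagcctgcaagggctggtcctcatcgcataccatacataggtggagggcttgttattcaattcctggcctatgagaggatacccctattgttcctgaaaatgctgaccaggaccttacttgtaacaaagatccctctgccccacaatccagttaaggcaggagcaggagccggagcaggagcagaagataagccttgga
Tie1: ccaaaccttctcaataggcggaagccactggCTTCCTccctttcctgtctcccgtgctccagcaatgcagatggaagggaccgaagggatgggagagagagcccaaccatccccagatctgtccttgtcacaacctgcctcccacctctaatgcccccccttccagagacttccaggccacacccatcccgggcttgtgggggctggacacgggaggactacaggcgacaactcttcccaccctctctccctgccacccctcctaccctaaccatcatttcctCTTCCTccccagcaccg
Emcn: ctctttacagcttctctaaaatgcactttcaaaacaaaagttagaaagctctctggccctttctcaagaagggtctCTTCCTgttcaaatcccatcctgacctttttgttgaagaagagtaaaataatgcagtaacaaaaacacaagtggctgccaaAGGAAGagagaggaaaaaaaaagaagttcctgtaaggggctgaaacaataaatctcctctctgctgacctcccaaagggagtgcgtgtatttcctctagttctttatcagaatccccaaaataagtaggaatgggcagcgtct
CACGTG was in 0 of the 7 windows of the 6 genes and in 7.15% of 32851 mouse promoters of the same length. ACGTG was in 1 window, the inner Vegfa start, and in 19.6% of all promoters. AGGAAG was in 3 windows, those of Flt1, Tie1 and Emcn, and in 35.4% of all promoters. AGAACA was in 1 window, that of Tek, and in 19.0% of all promoters. These matches describe the letters only, and no binding was measured here. Pecam1, Cdh5, Plvap and Nos3 had no entry.

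The libraries held 13421985 to 26742820 reads each, and values are normalised read counts, that is reads divided by a size factor per library. The normalised reads of Arntl, summed over its exons, were 494 to 860 in control females, 833 to 1010 in Bmal1 KO females, 365 to 1092 in control males and 841 to 995 in Bmal1 KO males. A sum over all exons includes exons that are kept in the deletion, so it does not check the genotype labels, and groups are named as labelled. On the second principal component of the genes that passed the filter, Bmal1 KO male 2 lay at 21.5, among the Bmal1 KO libraries at 12.4 to 38.6. The controls lay at -46.4 to 10.4. The margin was narrow, between control female 1 at 10.4 and Bmal1 KO female 4 at 12.4. The tissue label was checked against marker genes: steroidogenic cortex genes summed to between 339161 and 772423 and medullary chromaffin genes to between 87337 and 205520 normalised reads per library. Of 5 kidney markers, 2 or 3 were at 0 throughout each group. Of the endothelial markers, all 8 fixed for the cell type (the 9 without Nos3) were read in every library. In bulk tissue a lower level can come from fewer cells of a type or from less RNA per cell, and these cannot be told apart.

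Levels between genes can be compared only per kilobase of exon. On that scale Vegfa was the highest of the 10 genes in males, with 3245 ± 589 normalised reads per kilobase in controls (SD, n = 6) and 2772 ± 441 in Bmal1 KO (SD, n = 4). In females Plvap, the protein of the fenestral diaphragm, was highest, with 1575 ± 84.9 in controls and 1851 ± 265 in Bmal1 KO (SD, n = 5 each), and its range over libraries overlapped that of Vegfa. Emcn, a sialomucin of capillary and venous endothelium, came next in every group, at 479 to 572 per kilobase as group means. Tek, Pecam1, Kdr and Cdh5 followed, and neighbours in that order overlapped in every group. Tie1 neighboured Cdh5 and lay apart from it only in control females. Flt1 lay apart from both neighbours at 117 to 165 per kilobase, and Nos3, at 43.6 to 58.3, was lowest in each of the 4 groups.

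Vegfa, the ligand, was the member with the clearest difference between the sexes. The gene lies at chr17:46016993-46032369 on the minus strand (GRCm38). In control females its values were 6225, 4631, 5809, 5125 and 4825 normalised reads, and in Bmal1 KO females 6404, 6126, 5606, 5110 and 5961. Control males ranged from 10867 to 16725 with a median of 13876, and the Bmal1 KO males read 12230, 10038, 14365 and 10881. Every male library was above every female library, whereas the genotypes overlapped within each sex.

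**Figure D1:**
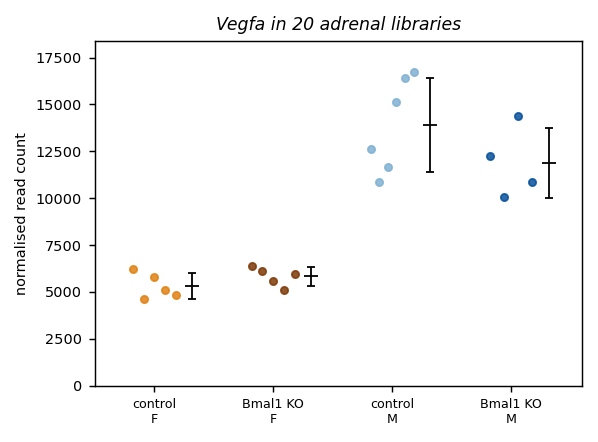
Vegfa in normalised read counts on the vertical axis (from 0) for each library (points) by genotype and sex on the horizontal axis, with the mean and SD of each group beside the points. The 10 female libraries lie between 4631 and 6404 and the 10 male libraries between 10038 and 16725.

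The female minus male difference of Vegfa was -1.37 ± 0.12 (SE) on the log2(value + 1) scale in controls, that is 2.59-fold higher in males (limma adjusted p = 2.47e-08). In Bmal1 KO it was -1.01 ± 0.13, or 2.02-fold higher in males (adjusted p = 7.40e-06). Differences by sex were common in these data: 26.4% of 26612 genes were called in controls and 22.8% in Bmal1 KO, and in controls 6.61% of all genes had every female library below every male library. The Vegfa difference kept its call in every alternative that was run. Control males were older by their labels than control females, and with age in months as a covariate the adjusted p was 1.28e-06 in controls.

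Deletion of Bmal1 was not followed by a called change of Vegfa in either sex. In females the group means were 5323 ± 674 in controls and 5841 ± 500.5 in Bmal1 KO (SD, n = 5 each), a log2 difference of 0.14 with a 95% interval from -0.12 to 0.39 (limma adjusted p = 0.752). In males they were 13905 ± 2522 (n = 6) and 11878 ± 1888 (n = 4), a log2 difference of -0.22 with an interval from -0.48 to 0.04 (adjusted p = 0.566). The point estimates had opposite signs, and the difference between the sexes' effects was 0.36 ± 0.18 (SE), with a 95% interval from -0.01 to 0.72 (adjusted p = 0.785), so a difference between the sexes was not shown. Over all genes 1.75% were called by genotype in females, 1.33% in males, and 0.0301% for the difference between the sexes.

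Among the other VEGF ligands, Figf and Vegfc were higher in Bmal1 KO, while Vegfb and Pgf were not called. Figf, the older symbol of Vegfd, encodes VEGF-D, and Vegfc encodes VEGF-C, ligands best known from lymphatic vessels and the receptor encoded by Flt4. Figf read 1716, 1681, 1290, 1219 and 987 in control females against 3394, 2936, 2974, 2907 and 3082 in Bmal1 KO females. In control males it ranged from 479 to 826 with a median of 579, against 1227, 1594, 1043 and 983 in Bmal1 KO males. In neither sex did the genotypes overlap, a separation upward that 1.81% of all genes showed in females and 1.58% in males. Figf rose by 1.18 ± 0.17 on the log2 scale in females (limma adjusted p = 0.000322) and by 0.95 ± 0.17 in males (adjusted p = 0.00491, and 0.0519 in a fit of only the 2 groups). It was higher in females than in males by 1.14 ± 0.16 in controls (adjusted p = 2.36e-05), which is opposite in direction to Vegfa.

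Vegfc was a low transcript with the same order of groups. Its means were 167 ± 28.4 in control and 300 ± 42.9 in Bmal1 KO females (SD, n = 5 each), and 51.0 ± 14.3 (n = 6) and 75.5 ± 16.5 (n = 4) in the males. The female genotypes did not overlap, with 200 the highest control and 230 the lowest Bmal1 KO value, and the male genotypes overlapped. The rise over both sexes was 0.71 ± 0.14 (limma adjusted p = 0.00347). In females alone it was 0.85 ± 0.19 (adjusted p = 0.0219), a call that was lost without the 2 control females of 1.5 months (adjusted p = 0.145) and in 6 of the runs that left out 1 library, when Bmal1 KO female 2, 3, 4 or 5 or either of control females 3 and 4 was omitted (adjusted p 0.0529 to 0.0696). Females exceeded males by 1.72 ± 0.18 in controls (adjusted p = 6.15e-07). Vegfb was at 694 to 748 normalised reads as group means and Pgf, placental growth factor, at 13.9 to 22.9. Their genotype differences averaged over sexes were 0.06 (adjusted p = 0.745) and -0.32 (adjusted p = 0.573).

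**Figure D2:**
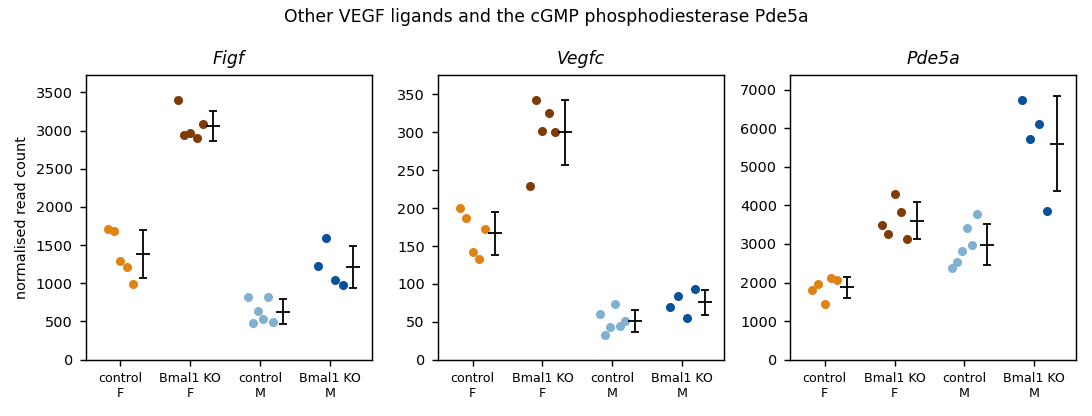
Normalised read counts (vertical axes, from 0) of Figf, Vegfc and the cGMP phosphodiesterase gene Pde5a in each library (points) by genotype and sex, with group mean and SD. For Figf and Pde5a each Bmal1 KO library lies above each control library of its sex. Vegfc overlaps between the male genotypes.

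Of the VEGF receptor genes, Flt1 in controls, Kdr in Bmal1 KO and Flt4 in both were called lower in females, the co-receptor gene Nrp1 was called higher in both, and limma called none by genotype. Kdr encodes the main signalling receptor for VEGF-A and Flt1 a receptor that binds it tightly and signals weakly. Flt1 read 1742, 1720, 1530, 1383 and 1556 in control females and from 1772 to 2153, with a median of 1851, in control males. These groups did not overlap. The difference was -0.28 ± 0.09 (limma adjusted p = 0.0283), but it was not called with age as a covariate (adjusted p = 0.214), without the youngest control females (adjusted p = 0.197), or in 5 of the runs that left out 1 library, namely when control female 3, 4 or 5, or else male 3 or 6, was omitted (adjusted p 0.0552 to 0.0884). In Bmal1 KO, Flt1 read 1860, 2176, 2062, 1476 and 1839 in females and 2015, 2283, 2530 and 2078 in males, which overlapped (-0.25 ± 0.10, adjusted p = 0.0885).

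Kdr showed the sex difference in Bmal1 KO. Its values there were 2733, 2993, 3274, 2758 and 2731 in females and 3546, 3280, 4237 and 3166 in males. The groups overlapped through female 3 and male 4. The difference was -0.29 ± 0.10 (limma adjusted p = 0.0442), and the call was lost in 9 of the runs that left out 1 library. The libraries omitted in these were Bmal1 KO females 1, 2, 4 and 5, Bmal1 KO males 1 and 3, control males 2 and 4 and control female 3, and the adjusted p ran from 0.0504 to 0.186. The call was also lost with age as a covariate (adjusted p = 0.0614), without the low-value filter (0.0575), in a fit of only the 2 groups (0.0524) and without the control females of 1.5 months (0.0514). In controls Kdr was at 2875 ± 157 in females and 3112 ± 455 in males (-0.10 ± 0.09, adjusted p = 0.450). Whether the sex difference of Kdr depends on genotype is the same contrast as the sex difference in the deletion effect, which was -0.19 ± 0.14 (adjusted p = 0.920).

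By genotype, Flt1 was 0.22 ± 0.07 higher in Bmal1 KO averaged over both sexes (limma adjusted p = 0.0826), which was not called. DESeq2 called it (adjusted p = 0.0245) and edgeR did not (adjusted p = 0.0560). Kdr was 0.10 ± 0.07 higher with an interval from -0.04 to 0.25 (adjusted p = 0.542). Of the other receptors, the co-receptor gene Nrp1 was higher in females by 0.57 ± 0.13 in controls (adjusted p = 0.00243) and by 0.62 ± 0.15 in Bmal1 KO (adjusted p = 0.00362). Flt4 was lower in females in both genotypes, at -0.37 ± 0.10 (adjusted p = 0.00618, and 0.0599 with age as a covariate) and -0.48 ± 0.11 (adjusted p = 0.00212). Of the 5 receptor and co-receptor genes none was called by genotype in females, in males or averaged over sexes by limma or edgeR. In the average 3 had an unadjusted p under 0.05, as did 15.1% of all genes, and DESeq2 called 1, Flt1. Over all genes DESeq2 called 1631 in that average.

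The TIE receptors Tie1 and Tek were lower in females in both genotypes. Tek is the receptor for angiopoietins and Tie1 its partner without a ligand of its own. Tie1 read 1129, 1200, 1144, 1191 and 1282 in control females and 1378 to 1615, with a median of 1463, in control males. In Bmal1 KO it read 1311, 1301, 1329, 1099 and 1267 in females and 1510, 1864, 1524 and 1378 in males. In neither genotype did the sexes overlap, a separation in this direction that 6.61% of all genes showed in controls and 9.79% in Bmal1 KO. The female minus male difference was -0.31 ± 0.07 in controls (limma adjusted p = 0.00317) and -0.31 ± 0.08 in Bmal1 KO (adjusted p = 0.00778), 1.24-fold higher in males in each. The call held in each run that left out 1 library and with age as a covariate (adjusted p = 0.0401 in controls and 0.0149 in Bmal1 KO).

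Tek was lower in females, and its sex difference in controls depended on whether age was in the fit. Its values were 1772, 1865, 1592, 1474 and 1188 in control females, where the last 2 libraries were those of 1.5 months and the lowest of the group. Control males ranged from 1672 to 2463 with a median of 2028 and overlapped the control females. In Bmal1 KO, Tek read 1878, 1580, 1637, 1476 and 1311 in females and 2115, 2139, 1971 and 2033 in males, without overlap. The sex difference was -0.37 ± 0.11 in controls (limma adjusted p = 0.0152) and -0.40 ± 0.12 in Bmal1 KO (adjusted p = 0.0206). In controls it was -0.16 with age as a covariate (adjusted p = 0.426) and -0.21 without the 1.5-month females (adjusted p = 0.194). In Bmal1 KO it was -0.32 with age as a covariate (adjusted p = 0.0438), and the call was lost without female 5 (adjusted p = 0.0583) or male 2 (adjusted p = 0.0523).

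Within groups Tek was 0.16 ± 0.06 higher per month of age on the log2 scale, but this was not called (limma adjusted p = 0.630), and 0.0% of 26612 genes were called for age. The same slope for Tie1 was 0.01 ± 0.05 (adjusted p = 0.977). Among the other members it ran from -0.08 for Cdh5 to 0.04 for Flt1.

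**Figure D3:**
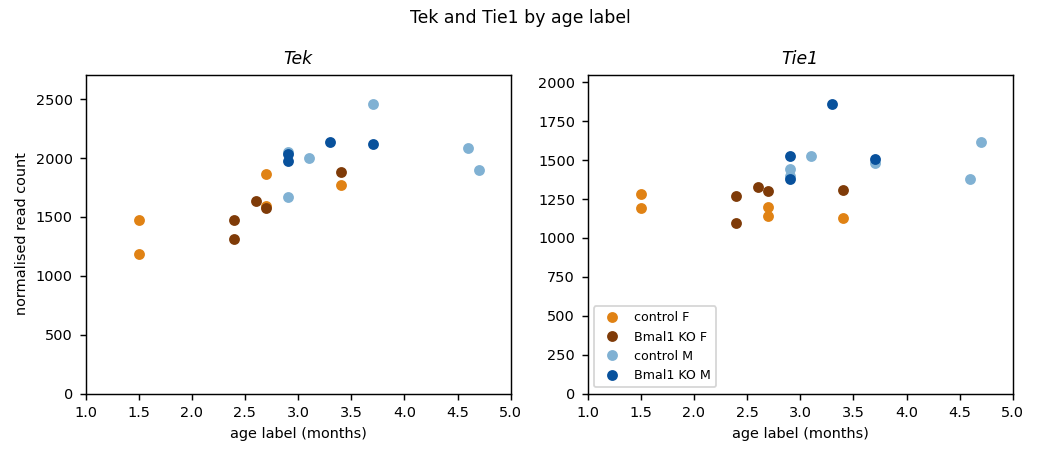
Tek (left) and Tie1 (right) in normalised read counts (vertical axes, from 0) against the age label in months, for each library (points, coloured by genotype and sex). The control females of 1.5 months hold the lowest Tek values of their group, at 1474 and 1188, and read 1191 and 1282 for Tie1, within or above the rest of that group.

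Of the angiopoietin ligands, Angpt1, the agonist of Tek, was higher in Bmal1 KO females. It read 119, 80.4, 84.6, 109 and 83.4 in control females and 163, 159, 161, 145 and 159 in Bmal1 KO females, without overlap. The difference was 0.74 ± 0.15 (limma adjusted p = 0.0109), and in males it was not called (111 ± 15.6 in controls, n = 6, and 120 ± 30.3 in Bmal1 KO, n = 4). The difference between the sexes' effects was 0.64 ± 0.22 (adjusted p = 0.552). Averaged over sexes Angpt1 was 0.42 ± 0.11 higher (adjusted p = 0.0334), with the call lost in 11 of the runs that left out 1 library (adjusted p up to 0.0810, without Bmal1 KO male 2), under the replicate block (0.0796) and without the youngest control females (0.0672). Ptprb, the phosphatase that acts on Tek, was lower in females in Bmal1 KO, at -0.51 ± 0.11 (adjusted p = 0.00247). Angpt4, read at 9.13 to 47.6 as group means, was also lower in females in both genotypes, in controls not with age as a covariate (adjusted p = 0.138).

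Of the junction and adhesion genes, Cdh5 encodes VE-cadherin and Pecam1 an adhesion molecule of endothelial contacts. Neither was called in any of the 6 comparisons. Pecam1 ran from 1952 to 2210 in control females, 1990 to 2766 in Bmal1 KO females, 1949 to 2526 in control males and 2270 to 2922 in Bmal1 KO males, and its genotype difference averaged over sexes was 0.15 ± 0.06 (limma adjusted p = 0.253). Cdh5 read 1222, 1158, 1252, 1350 and 1274 in control females and 1076, 1184, 1345, 1175 and 1163 in Bmal1 KO females. In control males it ran from 973 to 1365 with a median of 1202, and in Bmal1 KO males it read 1178, 1560, 1453 and 1413. Its genotype difference was -0.08 ± 0.09 in females, against 0.22 ± 0.09 among males. The female minus male contrast of these effects was -0.30 ± 0.13 (adjusted p = 0.721). In Bmal1 KO, the female minus male difference of Cdh5 was -0.23 ± 0.10 (adjusted p = 0.0848), which edgeR called (adjusted p = 0.0467).

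The called genotype differences among the 10 members were those of Plvap and Emcn, both higher in Bmal1 KO averaged over the sexes. Plvap forms the diaphragms of fenestrae and caveolae, and Emcn coats capillaries and veins. Over all genes 3.81% were called in this comparison, and 2.08% of all genes were called higher. Plvap read 3231, 2866, 3193, 3291 and 3068 in control females and 3712, 3973, 4337, 2958 and 3410 in Bmal1 KO females. In control males it ran from 2543 to 3309 with a median of 2984, against 3281, 4455, 3713 and 3424 in Bmal1 KO males. In females 4 of 5 Bmal1 KO libraries exceeded every control, and in males 3 of 4 did.

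Plvap rose by 0.27 ± 0.07 on the log2 scale, or 1.21-fold (limma adjusted p = 0.0380). It was 0.22 ± 0.10 higher in females (adjusted p = 0.385) and 0.32 ± 0.10 in males (adjusted p = 0.176), neither of which was called. The averaged call was lost in 11 of the 20 runs that left out 1 library: control females 2, 3 and 5, Bmal1 KO females 1, 2 and 3, control males 2, 4 and 6, and Bmal1 KO males 2 and 3. In those runs the adjusted p ran from 0.0502 to 0.0929, the highest without Bmal1 KO male 2. It was 0.0819 without the youngest control females, 0.0791 with the replicate number as a block and 0.05004, just over the threshold, without the low-value filter.

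Emcn read 2871, 2512, 2499, 2603 and 2461 in control females and 3039, 2775, 3551, 3113 and 2999 in Bmal1 KO females. Control males ran from 2443 to 3032 with a median of 2644, and Bmal1 KO males read 2779, 2783, 3155 and 3015. In females the overlap came from control 1 and Bmal1 KO 2, and in males from controls 3 and 6. Above every control of their sex were 4 of 5 Bmal1 KO females and 1 of 4 Bmal1 KO males. Emcn rose by 0.19 ± 0.05, or 1.14-fold (limma adjusted p = 0.0377). It was 0.26 ± 0.07 higher in females (adjusted p = 0.0846) and 0.13 ± 0.07 in males (adjusted p = 0.551). The averaged call was lost in 14 of the 20 runs that left out 1 library: control females 2, 3, 4 and 5, Bmal1 KO females 1, 3, 4 and 5, control males 1, 2, 4 and 5, and Bmal1 KO males 3 and 4. In those runs the adjusted p ran from 0.0521 to 0.0926, the highest without Bmal1 KO male 3. Without the youngest control females it was 0.115.

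Neither gene differed by sex beyond its error. For Plvap the 95% interval of the female minus male difference spanned -0.12 to 0.28 among controls, and -0.24 to 0.21 among Bmal1 KO libraries. For Emcn the intervals ran from -0.19 to 0.10 and from -0.09 to 0.24.

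Nos3, the endothelial nitric oxide synthase, had the largest point estimate of the averaged genotype differences among the 10 members and missed the threshold. It read 208, 171, 169, 178 and 221 in control females and 262, 285, 243, 177 and 238 in Bmal1 KO females. Control males ran from 159 to 209 with a median of 180, and Bmal1 KO males read 211, 228, 217 and 208. In females 4 of 5 and in males 3 of 4 Bmal1 KO libraries exceeded every control. The averaged difference was 0.30 ± 0.09 (limma adjusted p = 0.0552), called with another scaling (adjusted p = 0.0481) and by edgeR (adjusted p = 0.0360) and DESeq2 (adjusted p = 0.00714). It passed limma's threshold when Bmal1 KO female 4, control male 6 or either of control females 1 and 5 was omitted (adjusted p 0.00939 to 0.0484). Exons of Nos3 overlap Atg9b and Gm15587 on the opposite strand, and the strand setting of the counting is not given. Atg9b was counted at 7.92 to 12.5 normalised reads as group means.

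**Figure D4:**
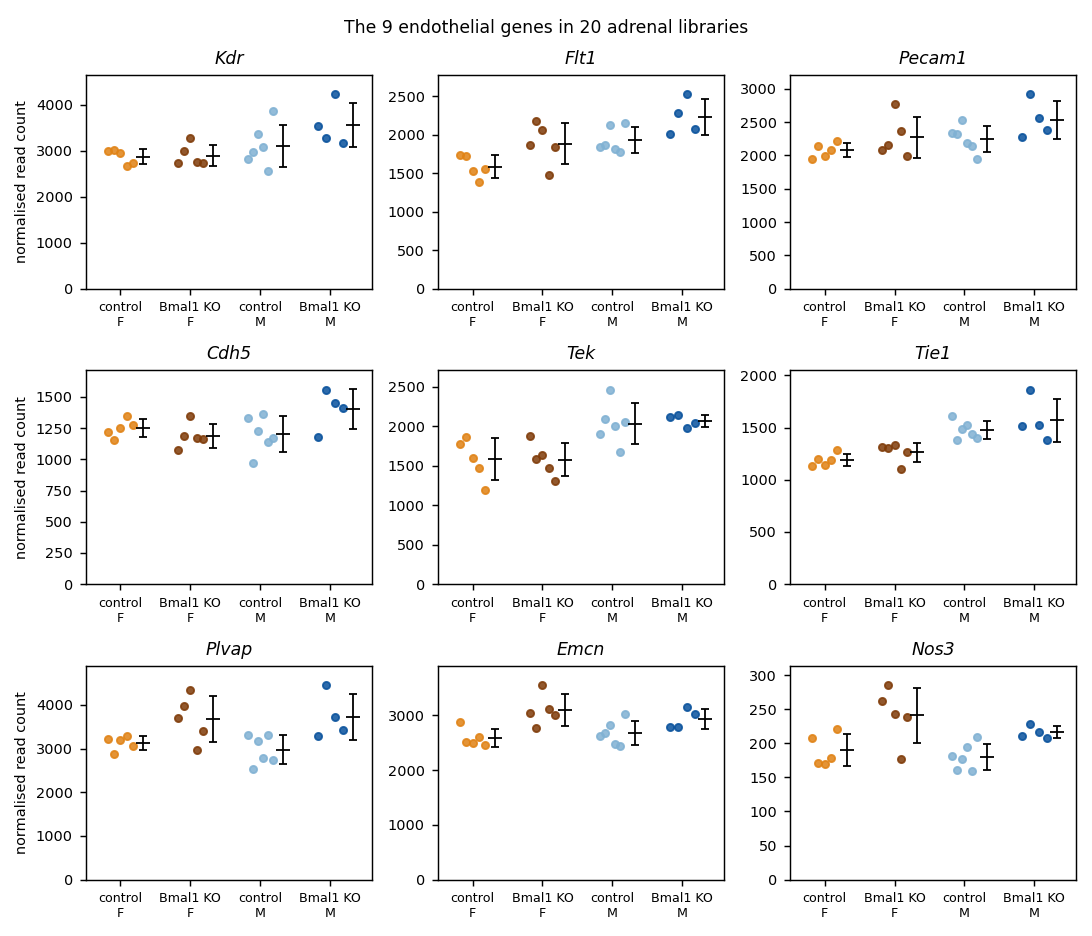
Normalised read counts (vertical axes, from 0) of the 9 endothelial genes in each library (points) by genotype and sex, with the mean and SD of each group beside the points. Tie1 separates the sexes in both genotypes. For Plvap and Nos3, 4 of 5 female and 3 of 4 male Bmal1 KO libraries lie above every control of their sex, and for Emcn 4 of 5 and 1 of 4 do.

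Seen as a list, the 9 endothelial genes were all above 0 for the averaged genotype difference, with a median of 0.15. Over all genes 50.2% were above 0 and the median was 0.00. Of the 9, 5 had an unadjusted p under 0.05, as did 15.1% of all genes. In this average limma called 2 of the 9 higher, Emcn and Plvap (2.08% of all genes), edgeR called 3 and DESeq2 called 4. The last 2 methods called more genes over all, 1160 and 1631 in either direction against 1013 by limma. The genes share libraries and cells, so they are not independent. In females alone 8 of 9 were above 0 (49.9% of all genes) with a median of 0.12 and none was called, and 4 had an unadjusted p under 0.05, as did 11.7% of all genes. In females edgeR called 0 and DESeq2 called 1, Emcn, where over all genes they called 518 and 906. In males 9 of 9 were above 0 (50% of all genes) with a median of 0.20, none was called by limma, edgeR or DESeq2, and 3 had an unadjusted p under 0.05, as did 10.9% of all genes. For the difference between the sexes' effects none was called by limma, edgeR or DESeq2, 3 of 9 were above 0 (50.8% of all genes), and 1, Cdh5, had an unadjusted p under 0.05 (6.44% of all genes).

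By sex, 3 of 9 were called lower in females in controls (Tie1, Tek and Flt1) and 3 of 9 in Bmal1 KO (Tie1, Tek and Kdr), with none higher. Over all genes 12.9% were called lower in females in controls and 10.6% in Bmal1 KO. The medians of the 9 were -0.10 and -0.23, against -0.05 and -0.07 over all genes. These comparisons share libraries: each female library enters both its genotype and its sex contrast.

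**Figure D5:**
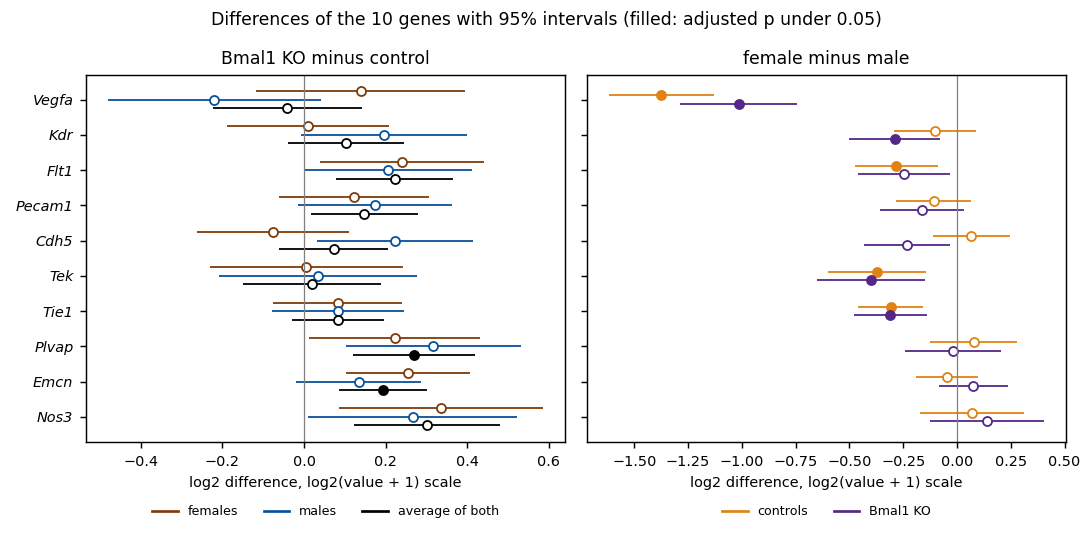
Log2 differences on the log2(value + 1) scale (horizontal axes) of the 10 genes, with 95% intervals, for Bmal1 KO minus control (left) and female minus male (right). Filled points have a limma adjusted p under 0.05: Plvap and Emcn for the average of both sexes on the left, and Vegfa, Tie1 and Tek in both genotypes, Flt1 in controls and Kdr in Bmal1 KO on the right.

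A second list of 24 endothelial genes outside the members was read in the same comparisons. For the averaged genotype difference none of the 24 was called by limma or edgeR. DESeq2 called 5 of the 24, and 1631 over all genes. Of the 24, 8 had an unadjusted p under 0.05 (15.1% of all genes), 19 were above 0 and the median was 0.11. The smallest p was that of Eng, encoding the co-receptor endoglin, at 0.27 ± 0.08 (limma adjusted p = 0.0748, and 0.0255 without control female 4). Summed over the 24 genes the libraries ran from 14469 to 15901 in control females, 15156 to 18645 in Bmal1 KO females, 14811 to 17399 in control males and 16410 to 19893 in Bmal1 KO males. By sex the list medians were -0.08 in controls and -0.07 in Bmal1 KO, against -0.05 and -0.07 over all genes. Of the 24, 2 were called lower in females in controls (12.9% of all genes) and 4 in Bmal1 KO (10.6% of all genes), with none higher. The junction gene Esam was among both, at -0.63 ± 0.09 (adjusted p = 1.70e-05) in controls and -0.33 ± 0.10 (adjusted p = 0.0184, and 0.0736 without male 2 or 0.0515 without female 4, and 0.0719 in a fit of only the 2 groups) in Bmal1 KO, as was Ushbp1, at -0.44 ± 0.11 (adjusted p = 0.00516, and 0.0583 with age as a covariate) and -0.52 ± 0.12 (adjusted p = 0.00340).

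Some markers of other cell types were called in the averaged genotype comparison as well, as were 3.81% of all genes. Of 6 steroidogenic genes, 2 were lower in Bmal1 KO averaged over sexes and none was higher: Star, which carries cholesterol into mitochondria, at -0.61 ± 0.11 (limma adjusted p = 0.00139), and Cyp11a1, the side-chain cleavage enzyme and the gene of the Cre driver, at -0.45 ± 0.12 (adjusted p = 0.0292, lost in 6 of the runs that left out 1 library, up to 0.0721 without Bmal1 KO male 4, and at 0.0688 without the youngest control females). The 6 summed to 481320 to 673440 normalised reads in control females, 416204 to 573210 in Bmal1 KO females, 481369 to 772423 in control males and 339161 to 557820 in Bmal1 KO males. None was at 0 in any group, and for the averaged difference 2 of the 6 were above 0, with a median of -0.17. Of 5 red blood cell genes none was called by limma, edgeR or DESeq2, 3 had an unadjusted p under 0.05, and all 5 were above 0 with a median of 0.50. Their sums were 6138 to 17015, 9784 to 20774, 6418 to 14764 and 7372 to 18892 in the same order. Of 5 macrophage genes Mrc1 was lower (-0.30 ± 0.08, adjusted p = 0.0292, lost in 7 of those runs and at 0.0711 without the youngest control females), while 2 of the 5 were above 0 and their median was -0.03. Of 5 adipocyte genes Plin1 was higher (0.38 ± 0.09, adjusted p = 0.0149), while 3 of the 5 were below 0 and their median was -0.11. The adipocyte median was -0.91 in females, with 4 of 5 below 0, and 0.42 in males, with 5 of 5 above 0. None of the chromaffin, platelet, stromal or kidney markers was called in this average by limma, edgeR or DESeq2, and 1 chromaffin and 1 platelet marker had an unadjusted p under 0.05. All 6 chromaffin genes were below 0 with a median of -0.23, and 3 of 5 platelet genes were below 0 with a median of -0.18. The part of these values in the differences of Plvap and Emcn was not tested.

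The 9 genes were summed per library to see whether 1 library carried them. The sums ran from 15992 to 17117 in control females, 16605 to 20544 in Bmal1 KO females, 16642 to 19390 in control males and 18906 to 21513 in Bmal1 KO males. Bmal1 KO female 3 was the highest of its group for 6 of the 9 genes, and Bmal1 KO male 2 for 6 of 9, with male 3 highest for the other 3. Bmal1 KO female 4 was lowest for 4 of 9. After group means were subtracted, the 36 pairs among the 9 had Pearson correlations from -0.29 to 0.70 over the 20 libraries, with a median of 0.27 and 30 above 0. Vegfa correlated with the 9 at -0.62 to 0.34, with a median of 0.11. These values describe libraries that share tissue dissection, depth and scaling.

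Of 13625 genes with a mean of at least 50, those most like Vegfa after group means were subtracted were Gm13857 (r = 0.88), Spry4 (r = 0.84), Lats1 (r = 0.83), Zfp948 (r = 0.81) and Wasl (r = 0.80), over 20 libraries. Those most like the mean of the 9 standardised endothelial genes were Ptprb (r = 0.80), Lca5 (r = 0.79), Bcl9 (r = 0.78) and Irf5 (r = 0.74), followed by a gene without a symbol in the table (r = 0.73). These were picked as the highest of many correlations and carry no test.

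Genes of fenestrae and caveolae and of the nitric oxide pathway were read beside Plvap and Nos3. Cav2, a caveolin, read 1207, 1453, 1121, 1085 and 1202 in control females and 1471, 1652, 1615, 1514 and 1482 in Bmal1 KO females. In control males it ran from 618 to 776 with a median of 688, against 821, 946, 879 and 1059 in Bmal1 KO males. The genotypes did not overlap in either sex. Cav2 rose by 0.38 ± 0.06 averaged over sexes (limma adjusted p = 0.000490) and was higher in females by 0.80 ± 0.08 in controls (adjusted p = 2.80e-07). Cav2 and Plvap were the 2 of 7 genes of this list called higher in the averaged genotype comparison, with none called lower. Over all genes 2.08% were called higher. The call of Plvap was lost in 11 of the runs that left out 1 library.

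Pde5a degrades cGMP, the messenger that nitric oxide raises, and was the 1 gene of the 12 on the nitric oxide list that limma called by genotype in females, in males and averaged. In the average edgeR and DESeq2 each called 2 of the 12, where over all genes they called 1160 and 1631. By sex in controls limma called 2 higher and 2 lower in females, where 26.4% of all genes were called. Pde5a read 1797, 1956, 1455, 2127 and 2062 in control females and 3499, 3248, 4300, 3837 and 3122 in Bmal1 KO females. In control males it ran from 2382 to 3789 with a median of 2896, against 6722, 5727, 6111 and 3850 in Bmal1 KO males. The genotypes did not overlap in either sex, although male 4 lay close to the highest control. Pde5a rose by 0.94 ± 0.15 in females (limma adjusted p = 0.000741), 0.90 ± 0.15 in males (adjusted p = 0.00209) and 0.92 ± 0.10 averaged (adjusted p = 9.44e-06). Like Vegfa it was lower in females, at -0.66 ± 0.14 in controls (adjusted p = 0.00132).

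The 16 genes of the hypoxia response, which include Vegfa, did not move together by sex. In controls 4 were called higher and 3 lower in females, with a median of -0.02. Over all genes 26.4% were called in that comparison, in either direction. Bnip3, a mitochondrial hypoxia target, was higher in females by 1.09 ± 0.10 (limma adjusted p = 8.99e-08), opposite to Vegfa, and Ndrg1 was lower, at -0.75 ± 0.19 (adjusted p = 0.00615, and 0.123 with age as a covariate). By genotype, Egln3, the oxygen-sensing hydroxylase induced by hypoxia, was 1.37 ± 0.25 higher in Bmal1 KO averaged over sexes (adjusted p = 0.00196) and the glycolytic gene Pgk1 was lower, at -0.32 ± 0.09 (adjusted p = 0.0481, lost in 15 of the runs that left out 1 library, up to 0.115 without Bmal1 KO male 3, and in 5 of the other alternatives, at 0.0502 to 0.117). Epas1, which encodes a hypoxia-inducible factor, was higher in Bmal1 KO males by 0.31 ± 0.07 (adjusted p = 0.0201, and 0.0929 without Bmal1 KO male 3 or 0.0513 without control male 2, 0.0535 with the replicate block and 0.0918 in a fit of only the 2 groups).

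Genes of vessel subtypes and of mural cells were also read. Of 9 arterial and Notch genes none was called in the averaged genotype comparison by limma, edgeR or DESeq2, and none had an unadjusted p under 0.05. In Bmal1 KO 3 of the 9 were called lower in females, as were 10.6% of all genes: Efnb2 at -0.90 ± 0.17 (limma adjusted p = 0.000422), Dll4 at -0.81 ± 0.21 (adjusted p = 0.00834) and Notch4 at -1.17 ± 0.41 (adjusted p = 0.0466). The call of Notch4 was lost in 13 of the runs that left out 1 library (adjusted p up to 0.138, without Bmal1 KO female 4) and in 7 of the other alternatives, edgeR and DESeq2 among them (0.0517 to 0.0738). Within each sex the genotype differences of these 9 pointed apart: 7 of 9 were below 0 in females (median -0.13) and 6 of 9 above 0 in males (median 0.22). For the difference between the sexes' effects 5 of the 9 had an unadjusted p under 0.05, as did 6.44% of all genes, and limma, edgeR and DESeq2 called none. None of 8 venous, 6 lymphatic or 12 pericyte and smooth muscle genes was called in the averaged genotype comparison by limma, edgeR or DESeq2, and 3 lymphatic genes had an unadjusted p under 0.05. The pericyte and smooth muscle genes split likewise, with 11 of 12 below 0 in females (median -0.22) and 10 of 12 above 0 in males (median 0.22). For that difference 5 of the 12 had an unadjusted p under 0.05 and limma, edgeR and DESeq2 called none. By sex, the venous adhesion gene Selp was higher in females by 2.23 ± 0.57 in controls (adjusted p = 0.00587, and 0.153 with age as a covariate) from means of 33.7 and 5.77 normalised reads. Of the 8 venous genes limma called 1 higher and 0 lower in females in controls. In Bmal1 KO it called 1 higher, Selp, and 1 lower, Nr2f2. In each genotype 5 of the 8 were below 0, with medians of -0.08 and -0.11. Over all genes 26.4% were called by sex in controls and 22.8% in Bmal1 KO. The lymphatic transcription factor gene Prox1 was higher in females by 0.51 ± 0.08 in controls (adjusted p = 3.63e-05) and by 0.65 ± 0.08 in Bmal1 KO (adjusted p = 8.19e-06). Reln was also called higher in both genotypes. Flt4 and, in controls, Pdpn were lower, the latter not with age as a covariate (adjusted p = 0.248). So of the 6 lymphatic genes limma called 2 higher and 2 lower in controls, and 2 higher and 1 lower in Bmal1 KO.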

How the data were processed

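Per the labels' protocols, whole-adrenal RNA came from a Direct-zol kit and libraries from a TruSeq RNA kit. Tools named in the submitters' processing notes were DESeq2, Salmon, featureCounts, MultiQC and FastQC, with mm10 (GRCm38) as build. Not given in the sources used here is what each did, which aligner and annotation were used and whether counting was stranded. The deposited signal is a read count that the authors divided by 1 DESeq2 size factor per library: 100% of positive values were whole multiples of the library's smallest step within 0.001 read, and that step multiplied by the size factor computed from the recovered reads was 1. The 20 libraries held 13421985 to 26742820 recovered reads, and 13350 of 47729 genes were at 0 in all. Gene coordinates came from GENCODE M21 on GRCm38, where 47310 identifiers were found.

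The model was limma-trend (limma 3.58.1, R 4.3.3) on log2(value + 1), with 4 group means over the 20 libraries. A gene entered if 4 or more libraries reached a value of 1, which left 26612. The threshold was an adjusted p of 0.05 (Benjamini-Hochberg over all genes tested). The 6 comparisons were Bmal1 KO minus control in each sex, their average and their difference, and female minus male in each genotype. Because of the added 1, fold values of low genes are understated. edgeR 4.0.16 and DESeq2 1.42.0 on recovered reads, another scaling, pseudocount and filter, a replicate block, age as a covariate, fits of only 2 groups and runs without each library were alternatives. Leaving out the control females of 1.5 months or Bmal1 KO male 2 was added after seeing the data. Data were simulated with no other difference between groups, and only genes with a mean of at least 20 reads were changed. Of genes with a simulated log2 change of 1 the fit recovered 75% for genotype in females, 69% in males, 89% averaged, 60% for the difference, 74% for sex in controls and 69% for sex in Bmal1 KO. Recovery of lower genes was not simulated. False calls made up 2.91%, 5.75%, 3.11%, 4.55%, 2.82% and 8.47% of the calls, in the same order. Smaller changes, such as those of the members by genotype, were not simulated.

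P-values measure the spread between these samples. The labels do not say that libraries of equal age are separate animals, so between those libraries the spread may be technical. Replicate numbers were taken not to pair animals. No library duplicated another. The members and gene lists were chosen with earlier results of these data known. Named were all 10 members, at most 4 called genes of smallest p per list and comparison or else the 1 of smallest p, and the 5 genes most like Vegfa and most like the endothelial mean. Start sequences and motif shares came from RefSeq windows. The windows printed for Vegfa, Tek and Tie1 were added after their values were seen.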

Additional observations from a re-analysis of the deposited data

Results flagged for a closer look

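Tie1 in Bmal1 KO female 4, at 1099 normalised reads, lay further below the other 4 libraries of its group (1267 to 1329) than Dixon's test allows at its 95% limit. It was the only such value among the 40 sets tested (10 genes in 4 groups), where chance gives about 1 in 20. Without that library the sex difference of Tie1 in Bmal1 KO kept its call.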

How the results depend on the processing

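Scaling, filter, pseudocount and edgeR left each count of called genes within 1.5 times of the reported one. DESeq2 called 906 genes by genotype in females, 730 in males, 1631 averaged and 70 for the difference between the sexes' effects. With only the 2 male groups 195 were called. With age as a covariate 0 were called for that difference and 3746 by sex in controls, and without the 2 control females of 1.5 months 262 in females. Leaving out each library gave 335 to 515 (females), 217 to 477 (males), 758 to 1210 (averaged), 0 to 16 (difference), 6054 to 7184 (sex, controls) and 4914 to 6237 (sex, Bmal1 KO). The lowest male counts were without Bmal1 KO male 4 (217) and control male 2 (229). The cause was not tested.

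Replicate numbers are shared between genotypes, and the main fit did not take them as pairs. Correlations of same-numbered female libraries were 0.38, 0.15, 0.10, 0.22 and -0.001 for numbers 1 to 5, against -0.28 to 0.16 for the other female pairs. In males the same-numbered ones ran from -0.15 to -0.02, against -0.24 to 0.18 for the others. The labels do not say whether the numbers pair animals, and these values cannot settle it for females. A replicate block gave 442, 350, 983, 9, 6850 and 5686 genes (females, males, averaged, difference, sex in controls, sex in Bmal1 KO). Under the block Plvap had an adjusted p of 0.0791 and Flt1 of 0.0320 in the averaged comparison. The cause was not tested.

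Of the members' values under other settings than a left-out library, 486 kept direction and side of the threshold, 12 lost a call, 7 gained one and 15 changed sign, all of the last uncalled. Tek by genotype in females was -0.0071 (edgeR), -0.0012 (DESeq2), -0.0488 (age) and -0.1518 (without the 1.5-month females), in males -0.0365 (block), and averaged -0.0153 (block) and -0.0588 (without those females), and Kdr in females -0.0475 (without them). For the difference between the sexes' effects, Flt1 was -0.038 and Tie1 0.0372 without those females. Under the block Pecam1 was 0.0043, Tek 0.0425 and Tie1 0.0073, and with the other scaling Tie1 was 0.013. Cdh5 by sex in controls was -0.0349 with age. Over the runs that left out 1 library, results that changed sign ranged as follows, in each case uncalled. By genotype, Kdr in females ran from -0.0353 to 0.03, Tek from -0.0921 to 0.0706 in females, -0.0198 to 0.0919 in males and -0.029 to 0.0524 averaged, and in males Tie1 from -0.0023 to 0.1428 and the macrophage gene Cd68 from -0.006 to 0.3499. For the difference between the sexes' effects, Flt1 ran from -0.0215 to 0.1185, Pecam1 from -0.1249 to 0.0192, Tek from -0.1262 to 0.0364, Tie1 from -0.0599 to 0.0851 and the kidney gene Lrp2 from -0.4365 to 0.1476. By sex in Bmal1 KO, Plvap ran from -0.0802 to 0.0725. With 4 to 6 libraries per group, differences within the 95% intervals given for the members were not resolved.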
